A study of Mus musculus with 11 samples.

Results

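aim2, Ifi204 and mndal encode members of the PYHIN protein family and make up 3 of the 93 genes of a custom nCounter probe set that was read in mouse spleen. They were chosen by name, as PYHIN genes described as sensors of DNA, when earlier results of these data were known. The set also holds further PYHIN genes and other sensors of nucleic acids. PYHIN proteins join a pyrin domain, which binds other proteins, to a HIN domain, which binds DNA. AIM2 assembles with the adaptor ASC and caspase-1 into an inflammasome when it meets DNA in the cytosol, while the p204 protein encoded by Ifi204 is nuclear and cytosolic and has been linked to STING and to interferon. MNDAL is a nuclear member of the family, and many genes of the family are induced by interferon.

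Spleen RNA came from 11 female mice in 5 groups. WT/Mrl (3 mice) and cGAS/Mrl (4 mice) were on the lupus-prone MRL background, and by the study's methods they carried the Fas lpr allele in both groups and a CRISPR/Cas9 deletion in the cGAS gene in the cGAS/Mrl mice, which the sample labels do not spell out. WT/B6 (1 mouse) and cGAS KO/B6 (1 mouse) were uninjected C57BL/6 animals, the second one lacking cGAS in the germline, and 2 further WT/B6 mice were injected with DMXAA, an agonist of mouse STING. The labels give neither the age of the mice nor the dose and time of the injection. Strain, the Fas lpr allele and disease cannot be told apart, because every Mrl mouse carried all of them and no B6 mouse did. Names for cGAS, STING and Fas were looked for on the panel and 0 were found, so the genotypes could not be checked against these values, and 0 of 27 markers of 6 spleen cell types were on it, so neither could the tissue. For the same reason, fewer cells of a type and less RNA per cell cannot be told apart. The labels give spleen as the tissue, and the study's text speaks of total splenocytes.

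The depth of the mice differed widely. The deposited signal was a whole multiple of 1 step per mouse, and dividing by that step returned whole numbers, referred to as recovered counts. The panel median of these counts was 21 in the WT/B6 mouse and 36 in the cGAS KO/B6 mouse, 106 to 207 in the Mrl mice, and 681 and 605 after DMXAA. With the authors' scaling, the panel median of the signal was 1.73 and 10.7 in the uninjected B6 mice and 1098 and 992 after DMXAA. Each gene was therefore given relative to the panel median of its own mouse, in which the authors' factor cancels. A value of 2 then means 2 times the median of the 93 genes in that mouse, which says nothing of RNA per cell. Probes differ in efficiency, so levels and ratios are compared between mice and not between genes. Whether each probe binds the RNA of both strains equally well was not tested.

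aim2, the inflammasome sensor, lay at 4.10, 5.52 and 5.44 times the panel median in the WT/Mrl mice and at 6.04, 5.97, 5.52 and 4.53 times in the cGAS/Mrl mice. It was at 1.76 times in the WT/B6 mouse, 6.25 times in the cGAS KO/B6 mouse, and 1.81 and 1.69 times in the DMXAA-injected mice. Thus the 3 WT/B6 mice, injected or not, were low, and the cGAS KO/B6 mouse lay above all 7 Mrl mice. The recovered counts behind these levels were 435 to 1206 in the Mrl mice, 37 in the WT/B6 mouse, 225 in the cGAS KO/B6 mouse and 1020 to 1230 after DMXAA.

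Ifi204 was at 0.491, 0.540 and 0.575 times the panel median in the WT/Mrl mice and at 0.592, 0.584, 0.441 and 0.515 times in the cGAS/Mrl mice. The WT/B6 mouse had 0.524 times, the cGAS KO/B6 mouse 0.139 times, and the DMXAA-injected mice 5.87 and 6.19 times. Hence the WT/B6 mouse lay among the Mrl mice, the cGAS KO/B6 mouse was the lowest and both DMXAA-injected mice were far above the rest. The uninjected B6 values rest on few counts, 11 in the WT/B6 mouse (exact Poisson 95% interval 5.49 to 19.7) and 5 in the cGAS KO/B6 mouse (1.62 to 11.7), whereas the Mrl mice had 52 to 119 and the DMXAA-injected mice 3995 and 3744. These intervals cover counting error only, and the background of the probes was not analysed here.

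mndal lay at 12.4, 15.2 and 16.0 times the panel median in the WT/Mrl mice and at 12.8, 16.3, 16.7 and 13.6 times in the cGAS/Mrl mice. The WT/B6 mouse had 13.5 times, the cGAS KO/B6 mouse 50.4 times, and the DMXAA-injected mice 12.5 and 10.2 times. The WT/B6 mouse and 1 DMXAA-injected mouse were therefore within the range of the Mrl mice, and the cGAS KO/B6 mouse stood alone above it. In that mouse mndal took 14.7% of all recovered counts, compared to 7.83% in the WT/B6 mouse, 4.63% to 5.88% in the Mrl mice and 1.32% and 1.03% after DMXAA.

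**Figure D1:**
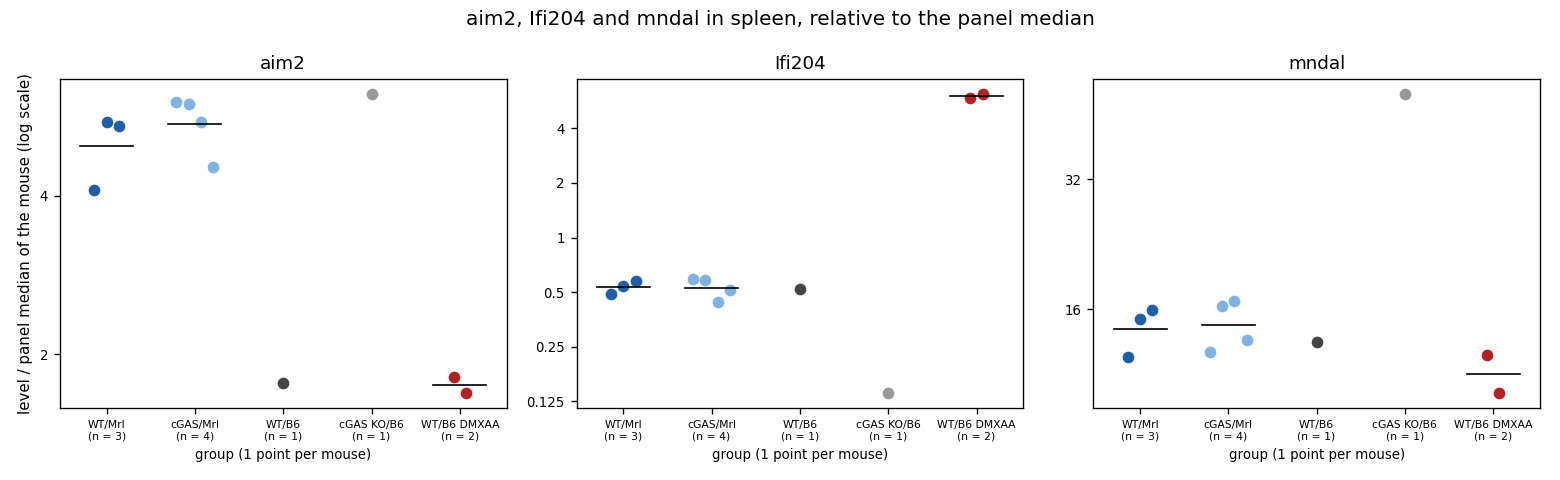
Level of aim2, Ifi204 and mndal relative to the panel median of the mouse (vertical axis, unitless, log scale, a different range for each gene) in the 5 groups, with 1 point per mouse and a line at the geometric mean of groups with more than 1 mouse. The Mrl mice sit close together for every gene, the cGAS KO/B6 mouse is high for aim2 and mndal (6.25 and 50.4) and low for Ifi204 (0.139), and DMXAA-injected mice are high for Ifi204 (5.87 and 6.19); on the deposited scale, where no panel median is taken off, all 3 genes were higher in Mrl than in uninjected B6 mice.

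The SD of the level over the 7 Mrl mice, on the log2 scale, was 0.21 for aim2, 0.15 for Ifi204 and 0.18 for mndal, beside a median SD of 0.21 over the 75 genes with at least 20 counts in each Mrl mouse, so aim2 varied like the middle gene of these. In order of their mean log2 levels, aim2 ran from WT/B6 (0.79) and DMXAA-injected WT/B6 (0.80) to WT/Mrl (2.31), cGAS/Mrl (2.45) and cGAS KO/B6 (2.61). Of these neighbours, WT/B6 and DMXAA-injected mice did not differ beyond the spread of the injected pair (SD 0.070, n = 2), nor did each of the last 3 groups from the next beyond the SD of 0.24 (n = 3) in WT/Mrl. For Ifi204 the order was cGAS KO/B6 (-2.62), cGAS/Mrl (-0.91), WT/Mrl (-0.90), WT/B6 (-0.87) and DMXAA-injected (2.59), of which the middle 3 lay within the SD of 0.20 (n = 4) in cGAS/Mrl. For mndal it was DMXAA-injected (3.50), WT/B6 (3.69), WT/Mrl (3.84), cGAS/Mrl (3.87) and cGAS KO/B6 (5.62). Each of the first 4 of these groups lay within the SD of 0.21 (n = 2) of its neighbour.

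The effect of cGAS deficiency was asked first in the Mrl mice, where both genotypes are replicated. limma on the log2 levels (adjusted p under 0.05, by Benjamini-Hochberg across the panel) called 0 of the 3 genes, and 0% of the panel. At an unadjusted p under 0.05 limma had 1 panel gene, viperin, and none of the 3 genes. voom on the recovered counts had 4 panel genes at an unadjusted p under 0.05 (viperin, cxcl2, duba and cxcl10) and called 0 after adjustment. The log2 difference, cGAS/Mrl minus WT/Mrl, was 0.14 for aim2 (95% interval -0.23 to 0.51), -0.014 for Ifi204 (-0.34 to 0.32) and 0.030 for mndal (-0.32 to 0.38), each with an adjusted p of 0.997 from limma. The direction of all 3 changed when single mice were left out, and that of Ifi204 also with the scaling. The groups overlapped for each gene, and the intervals bound the difference without showing that the genotypes were alike.

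Mrl mice were next set against the uninjected B6 mice, the comparison in which strain enters. limma called 3 of the 3 genes, where 68.8% of the 93 genes were called, so that a call was common on this panel. The mean of the Mrl groups minus that of WT/B6 and cGAS KO/B6 was 0.68 on the log2 scale for aim2 (standard error 0.16, limma adjusted p = 0.00415), 0.85 for Ifi204 (0.14, adjusted p = 0.000513) and -0.80 for mndal (0.16, adjusted p = 0.00157). Each B6 genotype was 1 mouse, which the fit assumes to vary like the other groups. Its standard errors and p therefore hold no spread between uninjected B6 mice, and no call on the strain is drawn from them. The log2 levels of these 2 mice, which differ in genotype, had an SD of 1.29 for aim2, 1.24 for Ifi204 and 1.36 for mndal. The single mice pulled in opposite directions. Without the cGAS KO/B6 mouse the aim2 difference was 1.59, and without the WT/B6 mouse those of Ifi204 and mndal were 1.72 and -1.76. Without the WT/B6 mouse the aim2 difference was -0.23, and without the cGAS KO/B6 mouse those of Ifi204 and mndal were -0.029 and 0.17, none of which limma called. The calls were also lost with centring on the 45 genes that had at least 20 counts in all mice for aim2 (0.25, adjusted p = 0.270) and Ifi204 (0.42, adjusted p = 0.0778), and for Ifi204 with a pseudocount of 10 (0.25, adjusted p = 0.107). For 0 of the 3 genes were all 7 Mrl mice on one side of the 2 uninjected B6 mice, whereas 48.4% of the panel genes were separated in this way. The levels of the 3 genes relative to the panel median thus gave no separation of the strains that held for both B6 mice. On the deposited scale without centring, the panel as a whole lay higher in Mrl mice, by a median log2 difference of 4.84, and the 3 genes with it by 5.71, 5.36 and 4.40 for aim2, Ifi204 and mndal.

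The cGAS KO/B6 mouse differed from the WT/B6 mouse by log2 1.82 for aim2, -1.75 for Ifi204 and 1.93 for mndal, with 1 mouse on each side. The cGAS effect in Mrl minus that in B6 was -1.68 for aim2, 1.74 for Ifi204 and -1.90 for mndal. limma put 3 of the 3 genes past its threshold here, and 33.3% of the panel, with a spread taken from the groups that have more than 1 mouse. This says nothing of how mice of either B6 genotype vary, and no call is drawn from it. On the deposited scale the Ifi204 value turned to -0.32, and that of aim2 shrank to -0.93 with centring on the 45 genes and to -1.14 with voom, both short of the threshold. mndal was -1.15 with centring on the 45 genes, Ifi204 was 1.04 with a pseudocount of 10, and on the deposited scale aim2 and mndal were -3.85 and -4.37. Whether these differences belong to the genotype or to the single mice was not tested, because neither B6 genotype has a second uninjected animal.

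DMXAA-injected WT/B6 mice were compared with the lone uninjected WT/B6 mouse, which the fit assumes to vary like the other groups. limma put 1 of the 3 genes, Ifi204, past its threshold, and 88.2% of the panel. The uninjected side has no spread of its own, so no call is drawn from this and differences are given without p. Ifi204 differed by 3.46 on the log2 scale, and by 3.13 to 11.69 over the alternatives run, aim2 by 0.014 and mndal by -0.19. Both of the latter were higher by 8.82 and 8.93 on the deposited scale, where the panel median itself shifted by 7.87. With both uninjected B6 mice as control, aim2 differed by -0.90 and mndal by -1.15, and with the WT/B6 mouse alone mndal turned to 0.24 with a pseudocount of 10 and to 0.38 with voom, where aim2 was 0.60. So Ifi204 was higher relative to the panel median in both injected mice than in the uninjected mouse, and the values of aim2 and mndal depended on the control mice and on these settings.

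Against the same DMXAA-injected mice, the Mrl mice had a log2 level that was higher by 1.58 for aim2 (limma adjusted p = 5.48e-06) and different by -3.49 for Ifi204 (adjusted p = 4.07e-09), and by 0.36 for mndal (adjusted p = 0.0567). This made 2 of the 3 genes called, against 89.2% of the panel. Those 2 genes, aim2 and Ifi204, were also those in which the 7 Mrl mice and the 2 DMXAA-injected mice did not overlap, beside 88.2% of the panel genes. The direction of aim2 turned on the deposited scale (-1.07, adjusted p = 0.0930), and its value was 0.73 with centring on the 45 genes and 0.88 with voom, both called. The direction of mndal turned on that scale (-2.29, adjusted p = 0.000182), with centring on the 45 genes (-0.48, adjusted p = 0.0184) and with voom (-0.33, adjusted p = 0.0128), each then called lower in Mrl mice, and that of Ifi204 did not turn under any of these. This comparison shares its injected mice with that of DMXAA, and its Mrl mice with that of uninjected B6.

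Ratios between genes of the same mouse need neither the authors' factor nor the panel median. The count of aim2 over that of mndal was 0.331, 0.363 and 0.341 in the WT/Mrl mice and 0.473, 0.367, 0.330 and 0.333 in the cGAS/Mrl mice. It was 0.131 in the WT/B6 mouse (exact binomial 95% interval 0.0902 to 0.185), 0.124 in the cGAS KO/B6 mouse (0.107 to 0.142), and 0.144 and 0.165 after DMXAA. All 7 Mrl mice were above all 4 B6 mice, and the uninjected B6 mice had like ratios although the levels of both genes were far higher in the cGAS KO/B6 mouse. The mean log2 ratio differed by 1.35 between Mrl and B6 mice, or 2.55-fold, with a 2-sided exact permutation p of 0.00606, the smallest that the 330 divisions of 11 mice can give. Adjusted over all 4278 pairs of panel genes it was 0.0242, but 0.0638 without DMXAA-injected mouse 1 and 0.0637 without mouse 2, at log2 differences of 1.36 and 1.43. Without either mouse the groups still did not overlap, so the unadjusted p was again the smallest possible. The adjusted p then depends on the number of mice and on how many other gene pairs reach that smallest p. It does not measure how firm this ratio is.

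The separation was 1 of the 3 ratios, where 25.1% of all gene pairs did not overlap between the 7 Mrl and the 4 B6 mice, and 54.3% of the pairs differed by more. Many other pairs of panel genes thus separated the strains as well. Against the 2 uninjected B6 mice alone the log2 difference was 1.48 and against the 2 DMXAA-injected mice 1.23, again without overlap. In both of these the exact permutation p was 0.0556, which is the smallest possible with 36 divisions, so that 0.05 could not be reached. Of the 3 ratios, 1 did not overlap against the uninjected mice and 3 against the injected mice, where 53.5% and 86.1% of all pairs did not.

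The ratio of Ifi204 to mndal was 0.0396, 0.0355 and 0.0360 in the WT/Mrl mice and 0.0463, 0.0359, 0.0264 and 0.0378 in the cGAS/Mrl mice. In B6 it ran from 0.00275 in the cGAS KO/B6 mouse (exact binomial 95% interval 0.000893 to 0.00644) over 0.0389 in the WT/B6 mouse (0.0192 to 0.0706) to 0.468 and 0.604 after DMXAA. Thus the WT/B6 mouse was inside the Mrl range, and the other B6 mice lay on both sides of it. Between the 7 Mrl and 4 B6 mice the log2 difference was -1.11 (exact permutation p = 0.236, 2-sided, adjusted 0.322 over all pairs). Without the cGAS KO/B6 mouse it was -2.64, and without DMXAA-injected mouse 1 or 2 it was -0.25 or -0.13, none of them past the threshold.

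Ifi204 over aim2 was 0.120, 0.0978 and 0.106 in the WT/Mrl mice and 0.0980, 0.0978, 0.0799 and 0.114 in the cGAS/Mrl mice. It was 0.297 in the WT/B6 mouse (exact binomial 95% interval 0.137 to 0.595), 0.0222 in the cGAS KO/B6 mouse (0.00715 to 0.0526), and 3.25 and 3.67 in the DMXAA-injected mice. Hence 3 B6 mice were above and 1 was below every Mrl mouse. The log2 difference of Mrl and B6 was -2.46 (exact permutation p = 0.158, 2-sided, adjusted 0.291), and without the cGAS KO/B6 mouse it was -3.93 with an adjusted p of 0.0456. Against the uninjected B6 mice alone, the ratio of Ifi204 to mndal turned to 1.64 and that of Ifi204 to aim2 to 0.16, with adjusted exact permutation p of 0.486 and 0.669.

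**Figure D2:**
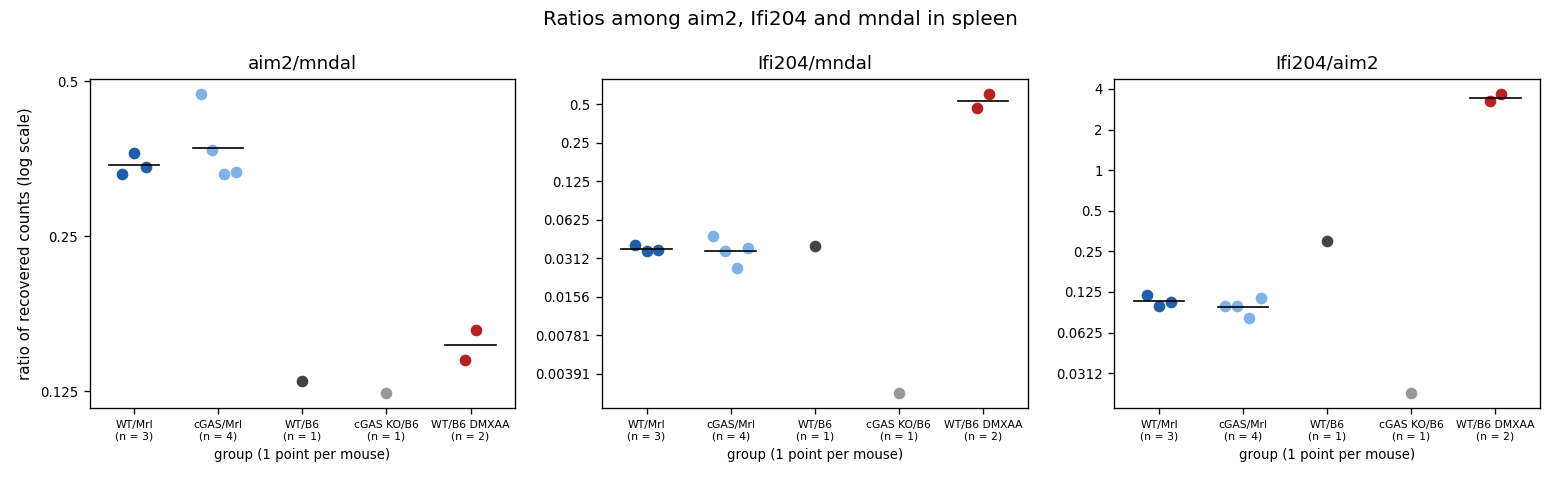
Ratio of recovered counts for each pair of the 3 genes (vertical axis, unitless, log scale) in the 5 groups, with 1 point per mouse and a line at the geometric mean of groups with more than 1 mouse. For aim2/mndal all Mrl mice (0.330 to 0.473) are above all B6 mice (0.124 to 0.165), while for both ratios with Ifi204 the B6 mice spread to either side of the Mrl mice.

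Between cGAS/Mrl and WT/Mrl the 3 ratios differed by log2 0.11 (aim2/mndal), -0.044 (Ifi204/mndal) and -0.15 (Ifi204/aim2). Of the 3 ratios, 0 separated the genotypes, beside 3.27% of all gene pairs. The exact permutation p was 0.686, 0.857 and 0.343, and 35 divisions can give no p below 0.0571.

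The panel genes most like each of the 3, chosen by Pearson correlation of the log2 level over the 11 mice, are named without values of r, because the mice fall into groups that stand apart and a relation across them cannot be tested. For aim2 they were nlrc5, duba and zbp1. nlrc5, a regulator of MHC class I genes, was at 5.30 to 7.40 times the panel median in the Mrl mice, 1.57 in the WT/B6 mouse, 6.47 in the cGAS KO/B6 mouse and 1.87 and 1.64 after DMXAA. For Ifi204 the genes were Il1ra, the antagonist of the interleukin-1 receptor, Ifi205 and socs1, all of them highest in the DMXAA-injected mice. For mndal they were Irf5, Irf2 and pstpip1.

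Other genes of the pathways that these sensors take part in were counted from lists, beside the panel, of which limma called 28% higher and 40.9% lower in Mrl than in uninjected B6 mice. For DMXAA only the differences are given. The calls against uninjected B6 mice come from a fit whose spread holds none of those mice. Fewer than 20 counts were found for 46 panel genes in the WT/B6 mouse, 26 in the cGAS KO/B6 mouse and 10 to 16 in Mrl mice. A very low count over a low panel median still gives a sizeable level. For such genes, lower levels in deeper mice cannot be told apart from depth. Which list genes these were is not given here. Of 11 type I interferon-stimulated genes, 6 were higher and 2 lower in Mrl than in uninjected B6 mice by limma (median log2 difference 0.44, and -0.072 over all 93 genes), from Ifi47 (2.47) to oas2 (-0.88). After DMXAA they reached 7.34 for Ifit1, with a median of 1.57 beside -0.93 over the panel. Of 8 inflammasome and interleukin-1 genes, 2 were higher and 3 lower in Mrl mice (median -0.18), from casp1 (0.74) to Il-33 (-1.40), and after DMXAA the median was -2.14, from Il1ra (1.61) to Il-1b (-6.20). Of 10 genes of nucleic acid sensing, 1 was higher and 4 lower in Mrl mice (median -0.20), from tlr7 (0.48, not called) to Irf5 (-1.19), and after DMXAA the median was -0.24, from Irf7 (2.00) to tlr9 (-3.30). Of 3 interferons, 0 were higher and 3 lower in Mrl mice (median -3.22), from Ifng (-0.98) to Ifna4 (-3.40), and after DMXAA the median was 3.30, from Ifnb1 (6.35) to Ifng (-4.03). On the deposited scale all of these genes were higher in both comparisons, as was the panel. None of the genes of the 4 lists was called between cGAS/Mrl and WT/Mrl. In Mrl against DMXAA-injected mice the higher and lower calls were 5 and 6, 5 and 3, 5 and 1, and 1 and 2, for interferon-stimulated, sensing, inflammasome and interferon genes in this order, where 55.9% of the panel was called higher and 33.3% lower. Several of these counts are near the shares of the panel. mda5, which the interferon-stimulated and the sensing list hold under its other name Ifih1, was not matched to them, and lgp2 is on neither. Looked at after their values were seen, these RNA sensors were higher after DMXAA by 1.59 and 1.96, and not called between Mrl and uninjected B6 mice (-0.17 and -0.18).

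In the RefSeq annotation of GRCm38.p6, the genes of the family stand side by side on chromosome 1. Aim2 comes first of 13 neighbouring protein-coding genes of the family, with 6 others between it and Ifi204, and Mndal directly follows Ifi204. In that annotation mndal is the symbol of one gene and also a synonym of its near relative Ifi203, and the probe sequences were not analysed here, so RNA of close relatives could not be told apart from that of the gene named.

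RefSeq promoters were found for aim2 (1) and mndal (2), and Ifi204 is named only. The 250 bases before each start were searched on both strands for the core of the interferon-stimulated response element, GAAANNGAAA, which 2.98% of all 32851 promoter windows of that length hold, and for that of the gamma-activated site, TTCNNNGAA, which 7.02% hold. The first was in both mndal windows and not in that of aim2, and the second in neither. The windows are shown because the ratio of aim2 to mndal was the one that did not overlap between the strains. All of them come from the 1 reference genome, and MRL sequence was not looked at, so they say nothing of a strain difference. The response element core is in capitals, read on the strand of the gene or, in the second mndal window, on the opposite strand. The last sequence, of the mndal relative Ifi203, shares a run of 96 bases with the first mndal window, the core included. The window of the first Ifi203 start did not hold the core, while those of the family genes Ifi205 and Ifi211 did. A match is a description of letters, and the absence of a match says only that these letters are not in the window.
Aim2, chr1:173420354-173420603, + strand: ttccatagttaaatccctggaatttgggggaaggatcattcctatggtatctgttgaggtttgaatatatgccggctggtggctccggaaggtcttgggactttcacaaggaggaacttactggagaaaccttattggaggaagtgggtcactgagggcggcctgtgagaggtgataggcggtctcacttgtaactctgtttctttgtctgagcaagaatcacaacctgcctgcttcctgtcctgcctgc
Mndal, first start, chr1:173880188-173880437, - strand: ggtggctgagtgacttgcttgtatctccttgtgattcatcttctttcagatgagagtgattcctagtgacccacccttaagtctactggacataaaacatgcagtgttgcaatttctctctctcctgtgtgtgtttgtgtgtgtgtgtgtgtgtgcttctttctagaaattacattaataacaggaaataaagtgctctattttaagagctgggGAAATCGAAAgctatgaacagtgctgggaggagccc
Mndal, second start, chr1:173879959-173880208, - strand: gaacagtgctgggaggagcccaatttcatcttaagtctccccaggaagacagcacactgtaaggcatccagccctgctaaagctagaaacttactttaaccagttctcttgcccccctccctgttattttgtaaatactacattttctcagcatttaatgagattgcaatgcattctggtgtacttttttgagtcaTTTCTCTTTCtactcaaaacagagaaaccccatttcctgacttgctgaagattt
Ifi203, second start, chr1:173942493-173942742, - strand: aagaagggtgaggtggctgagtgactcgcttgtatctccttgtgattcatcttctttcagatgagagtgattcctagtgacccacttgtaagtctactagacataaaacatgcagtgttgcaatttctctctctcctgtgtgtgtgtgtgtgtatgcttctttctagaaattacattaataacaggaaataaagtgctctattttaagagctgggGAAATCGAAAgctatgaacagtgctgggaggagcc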

How the data were processed

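Total RNA of spleen samples from 11 mice was hybridized to a custom nCounter probe set by the authors, who normalized counts to housekeeping genes. The deposited values are a linear signal. All 1023 of them were whole multiples of 1 step per mouse (100%, tolerance 0.0001), read as the value of 1 count. That the step is 1 count could not be checked further. Totals of recovered counts were 28406 to 58404 in Mrl mice, 3612 and 12386 in uninjected B6 mice, and 647148 and 600677 after DMXAA, so the uninjected B6 values are the least precise. Background correction is not stated in the sources used here.

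Each value was log2(signal plus the value of 1 count) minus the mouse's panel median of this. limma 3.58.1 (lmFit and eBayes, R 4.3.3) was fitted to all 93 genes, 2-sided, with Benjamini-Hochberg adjustment and a threshold of 0.05. The cGAS comparison in Mrl mice used those 7 mice (5 residual degrees of freedom), and the others used all 11 in 5 groups (6). Log2 ratios used a pseudocount of 1 count and exact permutation over mice (SciPy 1.17.1, Python 3.11.15), adjusted over 4278 gene pairs. Figures were drawn with Matplotlib 3.10.9. The tests were checked on simulated data. Mice of a group were compared in pairs by chi-square, which was at least 2.91 per degree of freedom, so each mouse was kept as its own sample.

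The members and lists were chosen with earlier results of these data known. Named genes are the 3 members, the 3 genes most correlated with each, and the highest and lowest gene of each list, of which 1 result is not reported here. Ifi205, mnda, mda5, lgp2 and the voom genes at an unadjusted p under 0.05 were added after their values were seen. Alternatives were the deposited scale, pseudocounts of 0.5 and 10, other centring, a filter at a mean count of 20, other fits and leaving out mice. limma voom on recovered counts and ratios with no pseudocount were added after the data were seen. P-values measure the spread between mice. Those of limma take it only from groups with more than 1 mouse, and so from no uninjected B6 mouse.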

Additional observations from a re-analysis of the deposited data

Results flagged for a closer look

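The cGAS effect in Mrl minus that in B6, on levels relative to the panel median, was -1.68 for aim2, 1.74 for Ifi204 and -1.90 for mndal on the log2 scale. Its B6 side is 1 mouse per genotype, and limma's p takes its spread from other groups, so a difference between the genotypes was not tested. Ifi204 turned to -0.32 on the deposited scale (adjusted p = 0.782), and aim2 missed the threshold with centring on genes of at least 20 counts in all mice (adjusted p = 0.0847) and with voom (0.0939). Ifi204 had 11 and 5 counts in these mice.

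The deposited log2 signal of mndal in cGAS/Mrl mouse 2 lay apart from the other 3 cGAS/Mrl mice, with a gap to the nearest of them of 0.8293 of the range of the group, just above Dixon's limit for 4 samples. Of 9 values looked at in this group 1 was beyond the limit. The 3 of them on the deposited signal were added after the data had been seen, and the 1 beyond the limit is among these. Chance gives about 1 in 20. Relative to the panel median, the largest mndal gap in this group was 0.238.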

How the results depend on the processing

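For the 5 limma comparisons and 3 ratios, 392 values were recomputed under other settings, and 349 kept their direction and side of the threshold, or their count of genes within 1.5 times. The cause of the changes below was not tested unless named. edgeR was not run, because the panel has too few low values to check that the true counts were recovered. The exact intervals and voom rest on the same recovered counts.

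Between cGAS/Mrl and WT/Mrl mice 0 genes were called under each setting. There Ifi204 turned to 0.063 on the deposited scale, 0.051 with centring on genes with at least 20 counts in all mice and 0.010 with voom. Leaving out single mice gave -0.0010 to 0.23 for aim2, -0.072 to 0.073 for Ifi204 and -0.082 to 0.10 for mndal. With the mouse number as a replicate block, 0 genes were called, and the differences were 0.23 for aim2, -0.00053 for Ifi204 and 0.069 for mndal, so the block changed no call. Mice with the same number did not deviate together (r of -0.21, 0.25 and 0.076 for numbers 1, 2 and 3). The exact Mann-Whitney test could not go below 0.0571.

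Between Mrl and uninjected B6 mice, mndal turned to 4.40 on the deposited scale. It was -0.49 with a pseudocount of 10 and -1.22 with the other centring. Ifi204 missed the threshold with a pseudocount of 10 (0.25) and, like aim2, with the other centring (0.42 and 0.25). With WT mice only Ifi204 was -0.022 and mndal 0.15, and with cGAS-deficient mice only aim2 was -0.16. Leaving out single mice gave -0.23 to 1.59 for aim2, -0.029 to 1.72 for Ifi204 and -1.76 to 0.17 for mndal, where the outer values came from leaving out a lone B6 mouse. The genes called were 26 higher and 38 lower, and 93 and 0 on the deposited scale. With the other centring they were 12 and 48, and with voom 23 and 23. With the filter at a mean count of 20 they were 26 and 29, so only the lower calls became fewer.

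After DMXAA, aim2 was 8.82 and mndal 8.93 on the deposited scale, and mndal was 0.24 with a pseudocount of 10 and 0.38 with voom. With both uninjected B6 mice as control aim2 was -0.90 and mndal -1.15, both past the threshold, from which no call is drawn. Leaving out single mice gave -0.036 to 0.063 for aim2 and -0.34 to -0.043 for mndal. The genes called were 35 higher and 47 lower, and 93 and 0 on the deposited scale.

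Mrl against DMXAA-injected mice gave -1.07 for aim2 and -2.29 for mndal on the deposited scale, and mndal was -0.48 with the other centring and -0.33 with voom, called as lower in these 3 settings, while aim2 was 0.73 and 0.88 in the last pair of settings. Leaving out single mice gave 0.21 to 0.50 for mndal, which was called without WT/Mrl mouse 1 (0.41) or cGAS/Mrl mouse 1 (0.39). The genes called were 52 higher and 31 lower, 5 and 54 on the deposited scale, 41 and 40 with the other centring and 43 and 40 with voom. The difference of the cGAS effect gave -0.32 for Ifi204 on the deposited scale, and -0.93 with the other centring and -1.14 with voom for aim2. mndal was -1.15 with the other centring, Ifi204 was 1.04 with a pseudocount of 10, and aim2 and mndal were -3.85 and -4.37 on the deposited scale. It had 31 genes called, 5 higher and 26 lower, but 12 with voom (4 and 8), 0 and 29 on the deposited scale and 17 and 7 with the other centring.

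The ratio of aim2 to mndal was 1.48 against the uninjected B6 mice and 1.23 in WT mice only, designs too small to reach the threshold after adjustment. Leaving out single mice gave 1.29 to 1.43, with adjusted p of 0.0354 to 0.0638, above 0.05 without either DMXAA-injected mouse. Against the uninjected mice Ifi204 to mndal was 1.64 and Ifi204 to aim2 0.16, and leaving out single mice gave -3.93 to -1.56 for Ifi204 to aim2 and -2.64 to -0.13 for Ifi204 to mndal. Low counts in the uninjected B6 mice limit Ifi204 most.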

Other observations

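Ifi205 and mnda, further PYHIN genes of the panel, were looked at after their values had been seen. In the RefSeq annotation mnda is only a synonym of Ifi211, so the gene that its probe reads is not certain. Ifi205 lay at 1.26 to 1.68 times the panel median in the Mrl mice, 1.43 and 0.972 times in the WT/B6 and cGAS KO/B6 mouse, and 3.86 and 3.08 times after DMXAA. Like Ifi204 it was highest in the DMXAA-injected mice. mnda lay at 0.302 to 0.609 times in the Mrl mice, 1.14 times in each uninjected B6 mouse, and 0.0661 and 0.0446 times after DMXAA, so that the uninjected B6 mice were above and the DMXAA-injected mice below every Mrl mouse. Its counts were 24 and 41 in the uninjected and 45 and 27 in the injected B6 mice, close to one another in counts although the panel median differed from 21 to 681.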
